A study of Mus musculus with 9 samples.

Results

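The livers of mice that ate a deficient diet and received tormentic acid were compared with the livers of normal mice, to describe which transcripts still differed from normal under treatment. The libraries were chosen by their labels, with earlier results of these data known. They were the 3 TA (tormentic acid) and the 3 normal libraries, 6 of the 9 in the series. All mice were of the C57BL/6 strain, and the normal group is labelled as wild type. The normal group received saline per the labels. The TA group ate an MCD diet (methionine- and choline-deficient), which produces fatty liver disease, and was treated with tormentic acid, a plant triterpenoid, at the dose the labels call high. The remaining 3 libraries, the model group, came from mice on the same diet without the compound, and their values are set beside those of the TA group. The sources used here do not give the amount of the compound, its route and duration, the time of day of collection, the diet of the normal group, or the sex and age of the animals. The diet and the compound cannot be told apart in this comparison, since the TA group had both and the normal group neither. Counts of 21898 genes summed to 13950065 to 16475794 per normal library and 13710002 to 16464308 per TA library. Of these genes, 13200 passed the filter on low counts and were tested.

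A diet without methionine and choline limits the making of phosphatidylcholine, which hepatocytes need to export lipid as lipoproteins. In this model triglyceride builds up in hepatocytes, macrophages enter the tissue and engulf lipid and dead cells, and stellate cells lay down matrix. Hepatocytes make up most of the liver's RNA and carry out its synthesis of lipids, bile acids and plasma proteins.

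Hepatocyte RNA dominated both groups. Albumin took 8.31% ± 0.78 of the counts in TA and 7.96% ± 1.08 in normal libraries (mean ± SD, n = 3). Whether the 3 libraries of a group are 3 mice is not stated in the labels, so every p-value refers to the spread among libraries, which may be technical. TA replicate 1 stood apart from TA replicates 2 and 3. A principal component analysis of the 6 libraries used log2 CPM. CPM are counts relative to the library's total over the tested genes times its TMM scaling factor. The second component carried 15% of the variance, and TA replicate 1 scored -48.2 against 22.7 and 26.3. Transcripts of the mitochondrial genome took 4.92% of its counts and 12.5% and 15.4% of the counts of the others, around the 6.45% to 7.80% of normal libraries. Haemoglobin transcripts took 0.0269% to 0.0503% in TA and 0.0142% to 0.0219% in normal libraries without overlap. An exact permutation test of the difference gave p = 0.10, the smallest that 3 against 3 libraries allow.

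The TA livers differed from normal in 2081 genes at an adjusted p under 0.05, or 15.8% of those tested. Of these genes 1417 rose (10.7% of those tested) and 664 fell (5.03%). A fold of at least 2 was reached by 1335 of them (10.1%), 1037 rises (7.86%) and 298 falls (2.26%). For 20.1% of all genes tested the 3 TA libraries lay above the 3 normal ones, and for 16.1% below. Set against the same normal libraries, the model group differed in 6344 genes (48.1%, with 25.4% rising and 22.6% falling). TA differed from model in 3031 genes (23.0%). The number called for TA against normal was 1332 without normal replicate 1, 1092 without normal replicate 3 and 1974 without TA replicate 1. The rises among them numbered 782 without normal replicate 3, and the falls 358, 310 and 374 without normal replicate 1, normal replicate 3 and TA replicate 2. For TA against model 1651 genes were called without TA replicate 3. Scaling by library totals alone in place of TMM factors raised the median log2 fold change of all genes from 0.03 to 0.14 and the share of rises among called genes from 68.1% to 78.4%. All changes given here are relative to the TMM scale. Each ± after a log2 fold change is an approximate standard error (n = 3 libraries a group). It was computed as the absolute change divided by the square root of the test's F statistic, and may be too small for genes of few counts. Each adjusted p comes from edgeR's quasi-likelihood test with Benjamini-Hochberg adjustment over all genes tested.

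The largest rises were led by genes of lipid-laden macrophages, of female-type xenobiotic metabolism and of the circadian clock. Mmp12 (ENSMUSG00000049723, chromosome 9, 7344381 to 7369499 on GRCm38), which encodes macrophage elastase, stood at 0.442, 0.426 and 0 CPM in the normal libraries and at 190.4, 191 and 146 CPM in the TA libraries. The groups were far apart, and the log2 fold change was 9.23 ± 0.45 (adjusted p = 1.18e-06), and 8.63 (adjusted p = 7.81e-07) without normal replicate 3. Gpnmb (ENSMUSG00000029816, chromosome 6, 49036546 to 49070929 on GRCm38), a lysosomal glycoprotein of such cells, stood at 2.14, 2.73 and 2 CPM in normal and 545, 341 and 221 CPM in TA libraries, and rose by 7.33 ± 0.38 (adjusted p = 1.7e-06). The lipid receptor gene Trem2 rose by 5.04 ± 0.41 and the leukocyte metalloproteinase gene Adam8 by 5.24 ± 0.38 on the same scale. Rad51b, which encodes a recombination repair protein, went from 1.25, 0.937 and 0.593 CPM to 23.8, 32.8 and 30.01 CPM and rose by 4.95 ± 0.26 (adjusted p = 1.71e-06). The model libraries held 22.4 to 28.1 CPM of Rad51b, a range that holds 1 of the 3 TA values. In absolute CPM the largest rises among called genes without overlap between the groups were those of Cyp4a14, Cyp4a10, Igfbp2, Cyp2a5 and Psap. They are taken up below. Genes that were not called, such as Apoe, could gain more CPM.

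**Figure D1:**
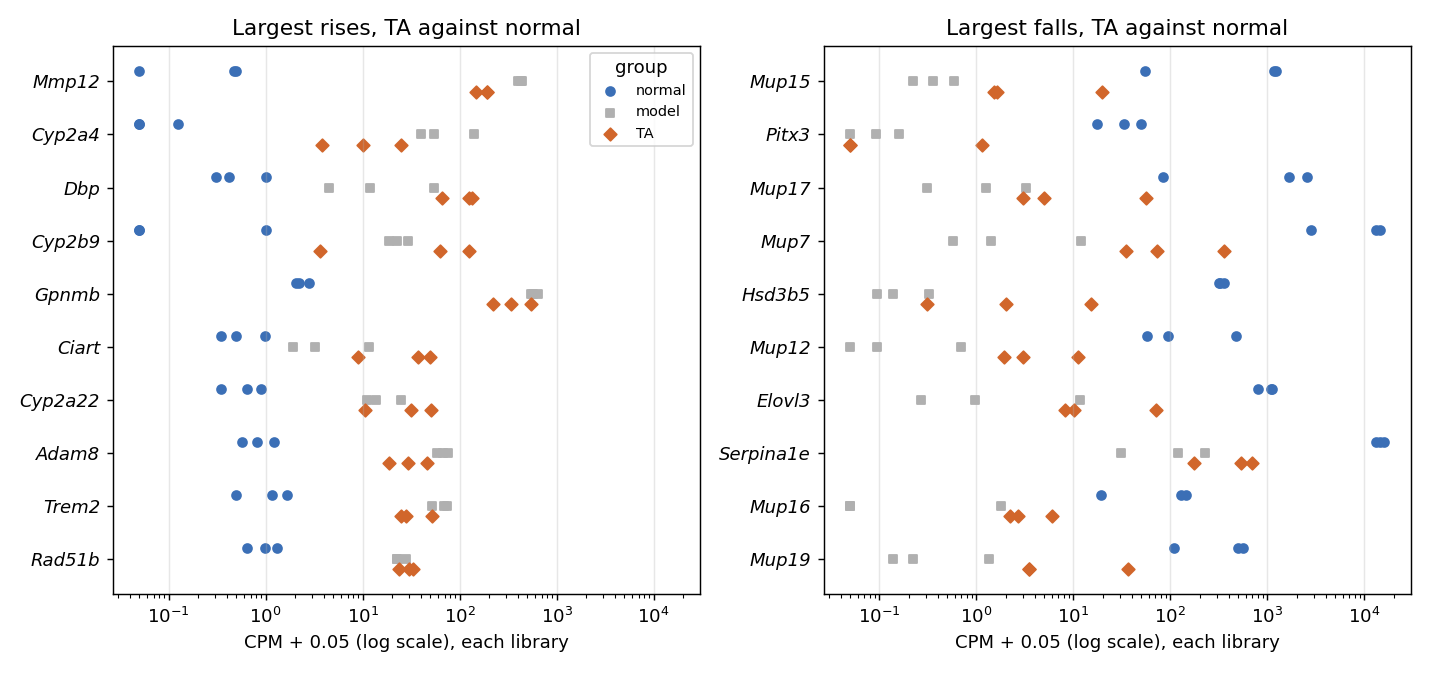
CPM of the 10 largest rises (left) and the 10 largest falls (right) by log2 fold change, with 1 point per library of the normal, model and TA groups on a log axis. For each gene the TA points lie apart from the normal points, as the rule that chose these genes required, and for Mmp12 the lowest TA library held 146 CPM.

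The 10 largest falls were taken from called genes of 10 CPM or more without overlap, leaving out clone-type names, pseudogenes and immunoglobulin segments. They were those of 6 major urinary protein (Mup) genes and of Serpina1e, Hsd3b5, Pitx3 and Elovl3. Serpina1e (ENSMUSG00000072849, chromosome 12, 103946931 to 103958975 on GRCm38), an alpha-1 antitrypsin gene with male-biased expression in mouse liver, stood at 13172, 14367 and 15882 CPM in normal and at 697, 538 and 176 CPM in TA libraries, and fell by 4.94 ± 0.71 on the log2 scale (adjusted p = 0.000989). Hsd3b5, a male-specific steroid dehydrogenase gene, went from 321, 361 and 328 CPM to 15.3, 1.96 and 0.261 CPM. Every TA library was below every normal one, and TA replicate 1 held the highest of the TA values. Its log2 fold change was -5.79 ± 0.86 (adjusted p = 0.00122), and -8.24 (adjusted p = 2.77e-05) without that library. The copies of the Mup genes are nearly identical, so that the share of reads each received is uncertain. Pitx3 overlaps the fatty acid elongase gene Elovl3 on the opposite strand, and as the use of strand in counting was not given, its reads cannot be told from those of Elovl3. Elovl3 itself went from 795, 1125 and 1103 CPM to 71.1, 8.08 and 10.2 CPM and fell by 5.07 ± 1.16 (adjusted p = 0.0131). Without TA replicate 1, the highest of the TA libraries, the value was -6.82 (adjusted p = 0.00605), and without TA replicate 3 it was no longer called, at -4.67 (adjusted p = 0.0521).

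The called genes were grouped by 46 lists of liver functions and cell types. The lists were written with earlier results of model against normal known, so their shares called in that comparison are descriptions only. In 10 lists at least 50% of the tested members were called, a count chosen after the values were seen, which was 4 to 9 when 1 of the 6 libraries was left out (4 without TA replicate 3, 5 without normal replicate 3 and 6 without normal replicate 1). Those with mostly rises were the macrophage, lipid-associated macrophage, cytokine, metalloproteinase and female-biased lists, and a list of 32 markers of other tissues, of which 7 were tested. The metalloproteinase (12 rises and 2 falls of 25), female-biased (13 and 2 of 28) and other-tissue (3 and 1 of 7) lists reached 50% only with their falls. Those with falls were the cholesterol, fatty acid synthesis and male-biased lists, and the clock list changed in both directions. At the other end, none of 49 nuclear genes of oxidative phosphorylation and none of 25 endoplasmic reticulum chaperone genes passed the test. Over all genes tested 15.8% were called, with 10.7% rising and 5.03% falling. Besides lists without calls, the share called was near or below 15.8% in these. They were bile acid (12%), apolipoprotein (9.52%), one-carbon (15.6%), amino acid (15.6%), periportal (14.8%), pericentral (8.7%) and metal (14.3%) genes. Others were Kupffer (16.7%), B cell (7.69%), endothelial (6.25%), hepatocyte (2.33%), cell cycle (14.9%), heat shock (5%) and secreted hormone (17.9%) genes.

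**Figure D2:**
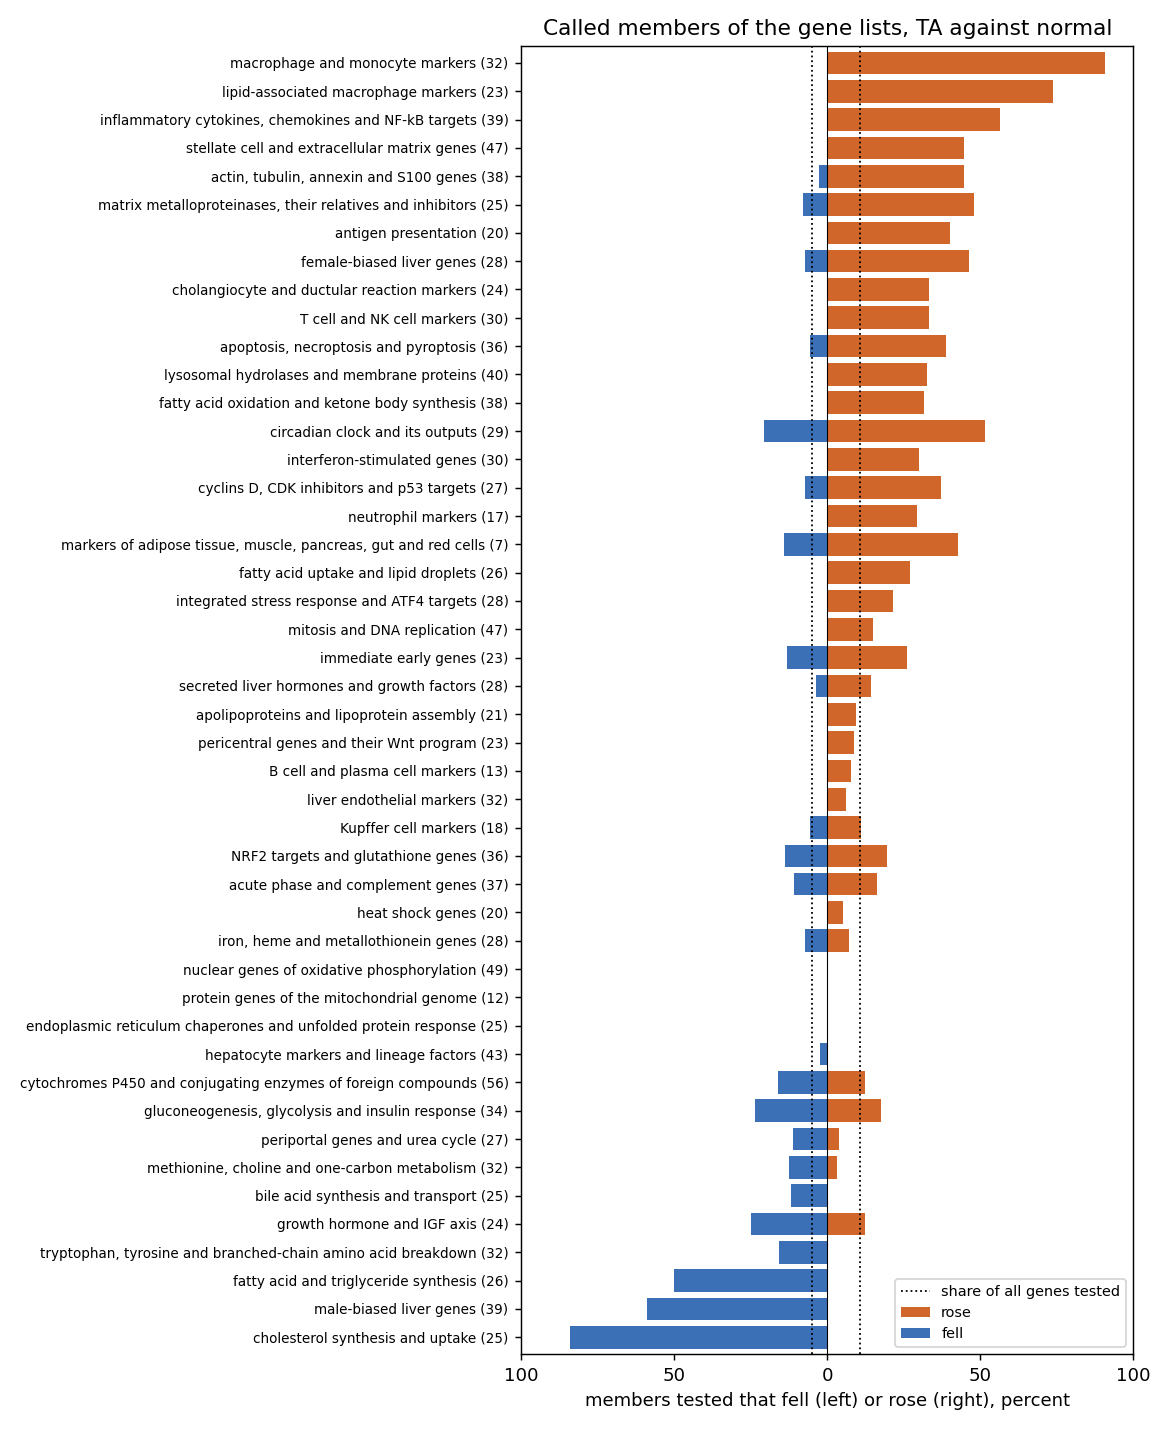
Percent of the tested members of each list that rose (right) or fell (left) in TA against normal livers, with the number tested in brackets and dotted lines at the shares of all genes tested (10.7% higher, 5.03% lower). The macrophage list (29 of 32 rose) and the cholesterol list (21 of 25 fell) have the highest shares.

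Macrophage and monocyte transcripts were well above normal. Of 32 tested markers 29 rose and none fell, with a median log2 fold change of 1.70 against 0.03 over all genes. The markers summed to 656 to 798 CPM in normal, 1882 to 2539 CPM in TA and 4079 to 5347 CPM in model libraries, with no overlap between the 3 groups. Cd68, a lysosomal membrane protein gene of macrophages (ENSMUSG00000018774, chromosome 11, 69664213 to 69666153 on GRCm38), stood at 14.9, 14.4 and 14 CPM in normal and 84.8, 75 and 71.2 CPM in TA libraries and rose by 2.42 ± 0.15 (adjusted p = 8.27e-06). The other leading members were the integrin gene Itgax (4.53 ± 0.37, adjusted p = 3.44e-05), the cathepsin gene Ctss (2.52 ± 0.21, adjusted p = 4.15e-05) and the lysozyme gene Lyz2 (2.60 ± 0.23, adjusted p = 5.04e-05). The mannose receptor gene Mrc1, which sinusoidal endothelium also expresses, was not called at 0.26 ± 0.35, adjusted p = 0.653, with 29.6, 103 and 66.2 CPM in TA libraries around the 51.7, 55.4 and 58.5 CPM of normal ones. In bulk tissue, more cells of a type and more RNA per cell cannot be told apart.

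Markers of lipid-associated macrophages, a state with high lysosomal and lipid-handling genes, were the list with the highest median among the 46, at 2.70. Of 23 tested members 17 rose and none fell. Lgals3, a galectin gene, stood at 7.22, 7.41 and 5.56 CPM in normal and 182, 148 and 139.7 CPM in TA libraries. No library of either group came near the other, and the log2 fold change was 4.54 ± 0.21 (adjusted p = 1.18e-06). Capg, an actin-capping gene of macrophages, rose by 3.99 ± 0.29 (adjusted p = 1.6e-05), and the tetraspanin gene Cd63 of the lysosomal list by 3.95 ± 0.29 (adjusted p = 1.6e-05). Apoe, which hepatocytes also make in quantity, was not called (0.45 ± 0.28, adjusted p = 0.309). Set beside these values, the median of the same list was 3.32 for model against normal, where 19 members rose against a background of 25.4%, and -0.63 for TA against model.

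Genes that mark resident Kupffer cells gave few calls. Of 18 tested, 2 rose and 1 fell, with a median of -0.12. That median turned to 0.03, 0.29 and 0.04 without normal replicate 1, TA replicate 1 and TA replicate 3 and to 0.02 in a fit of the 6 libraries alone, and 4 members rose without TA replicate 1. Their summed level was 1483 to 1866 CPM in normal and 1039.5 to 1455 CPM in TA libraries, all TA values below all normal ones. That sum includes the complement gene C6, which went from 388, 496 and 466 CPM to 300, 94.6 and 77.3 CPM. C6 was not called (-1.52 ± 0.54, adjusted p = 0.0801), but was without TA replicate 1 (-2.42, adjusted p = 0.00838) and in the 6 libraries alone (-1.51, adjusted p = 0.0457). The sum without C6 was not computed. The called rises were those of Hmox1, which encodes the haem-degrading enzyme (1.18 ± 0.22, adjusted p = 0.00377), and of Id3, a lineage factor of these cells (0.78 ± 0.17, adjusted p = 0.0108), the latter not called without normal replicate 3 (0.73, adjusted p = 0.0564). The called fall was that of Paqr9 (-1.46 ± 0.34, adjusted p = 0.0137), which was lost without normal replicate 2 and without TA replicate 2 or 3. Defining genes of the resident cells, named after their values were seen, were not called: Clec4f was at -0.72 ± 0.47 (adjusted p = 0.325), Timd4 at -1.40 ± 0.66 (adjusted p = 0.173) and Vsig4 at -0.16 ± 0.42 (adjusted p = 0.83). TA replicate 1 was the lowest of the 9 libraries for each of these 3 genes, with 22.9 CPM of Clec4f against 72.6 and 141.7 CPM in the other TA libraries.

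Inflammatory signals and other leukocyte markers rose in part. In the list of cytokines, chemokines and NF-kB targets 22 of 39 members rose, none fell, and the median was 1.19, between 0.03 for all genes and 2.53 for the same list in model against normal. Il1rn, the interleukin 1 receptor antagonist gene, went from 3.91, 1.87 and 1.56 CPM to 16.9, 30.9 and 33.4 CPM (3.45 ± 0.34, adjusted p = 0.000105), and the chemokine receptor gene Cxcr4 from 1.84, 1.19 and 0.889 CPM to 9.49, 12.9 and 9.22 CPM (3.0 ± 0.34, adjusted p = 0.000219). All TA values of both genes lay above all normal values. Cxcl12, a chemokine gene of stromal cells, was not called (-0.32 ± 0.16, adjusted p = 0.208), and was called with DESeq2 (-0.34, adjusted p = 0.0443). Among antigen presentation genes 8 of 20 rose, led by the class II genes H2-Aa (2.10 ± 0.29, adjusted p = 0.000777) and Cd74 (1.74 ± 0.26, adjusted p = 0.00115) and their activator Ciita (1.99 ± 0.28, adjusted p = 0.000784). B2m, the light chain of class I, was not called (0.32 ± 0.29, adjusted p = 0.493).

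Interferon-stimulated genes rose in 9 of 30 cases, with the antiviral synthetase genes Oas3 (2.09 ± 0.27, adjusted p = 0.000561) and Oas2 (1.94 ± 0.28, adjusted p = 0.00103) among them. That count was 5 without normal replicate 2 or 3 or without TA replicate 2, 6 without TA replicate 3, and 12 without TA replicate 1. T and NK cell markers rose in 10 of 30 cases, 4 without normal replicate 1 or 3 and 6 without TA replicate 2. Their summed level was low, at 26.9 to 47.5 CPM in normal and 70.9 to 89.3 CPM in TA libraries, and Cd8a, the coreceptor of cytotoxic T cells, rose by 2.51 ± 0.37 (adjusted p = 0.00122). Neutrophil markers rose in 5 of 17 cases, 2 without normal replicate 2 and 3 without normal replicate 3 or TA replicate 3, and S100a9, a granule protein gene that defines the type and was named after its values were seen, was at 0.24 ± 0.67 (adjusted p = 0.844). For B and plasma cells 1 of 13 markers rose, the lectin gene Cd22 (1.74 ± 0.30, adjusted p = 0.00254), while Ms4a1, which marks B cells and was named after its values were seen, was at 0.37 ± 0.54 (adjusted p = 0.688).

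Matrix and fibrogenic transcripts were still raised, with a wide spread among the TA livers. Of 47 tested genes of stellate cells and matrix 21 rose and none fell, with a median of 1.22 for TA and 2.20 for model against normal. Col1a1 (ENSMUSG00000001506, chromosome 11, 94936224 to 94953042 on GRCm38), a chain of type I collagen, stood at 7.44, 12.3 and 5.04 CPM in normal and at 147, 36 and 83 CPM in TA libraries, highest in TA replicate 1. Its log2 fold change was 3.43 ± 0.63 (adjusted p = 0.00398), and 2.83 (adjusted p = 0.0119) without that library. The count of rises in the list was 8 without TA replicate 1, 14 without TA replicate 3, and 7, 11 and 12 without normal replicates 3, 1 and 2, and 13 with limma-voom. Other rises were those of Tgfb1, the fibrogenic growth factor gene (1.22 ± 0.15, adjusted p = 0.000474), and Vim, a filament gene of mesenchymal cells (2.11 ± 0.28, adjusted p = 0.000602). Fn1, a plasma and matrix protein gene that hepatocytes express, was not called (-0.21 ± 0.25, adjusted p = 0.614), nor was Acta2, the actin gene of activated stellate cells, named after its values were seen (-0.58 ± 0.53, adjusted p = 0.491).

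Among metalloproteinases, their relatives and inhibitors 12 of 25 rose and 2 fell. Besides Mmp12 and Adam8 the rises included Plaur, the urokinase receptor gene (3.22 ± 0.30, adjusted p = 8.31e-05), and Plau, the gene of urokinase itself (3.24 ± 0.42, adjusted p = 0.000561). The rises numbered 6, 7 and 7 without normal replicate 3, normal replicate 2 and TA replicate 1 and 7 with limma-voom, and Mmp12, Adam8, Plaur and Plau stayed called in every setting tried. Mmp19 fell by 0.64 ± 0.16 (adjusted p = 0.0232), a call lost without normal replicate 1 or 3 or TA replicate 2, with library totals or with the replicate block. Cholangiocyte and ductular markers rose in 8 of 24 cases with a median of 2.27, or 1.45 without TA replicate 1. Spp1, an adhesion protein gene of ductular cells and macrophages, went from 29.9, 37.1 and 25.8 CPM to 325, 101 and 186 CPM (2.72 ± 0.53, adjusted p = 0.00571). The TA libraries of this list followed the order of the matrix list, with medians over its members of 1.87, 0.57 and 1.11 on a log2(CPM + 1) scale relative to normal in TA replicates 1, 2 and 3, against 1.64, 0.40 and 1.02 for the matrix list. The rises in the cholangiocyte list numbered 2 without any 1 of the normal libraries or TA replicate 1 and 5 without TA replicate 3. They numbered 1 with limma-voom and 13 with DESeq2 or in a fit of the 6 libraries alone. Krt19, a defining keratin gene named after its values were seen, was not called (1.94 ± 0.91, adjusted p = 0.171). Of 32 liver endothelial markers 2 rose, Lyve1 (1.58 ± 0.45, adjusted p = 0.0364) and Stab1 (0.71 ± 0.21, adjusted p = 0.0446), and none fell, with a median of 0.29. Both calls were lost without any 1 of the normal libraries or TA replicate 2, that of Lyve1 also without TA replicate 3 and that of Stab1 also without TA replicate 1, and both with limma-voom and with the replicate block. Without TA replicate 1 the rises numbered 4.

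**Figure D3:**
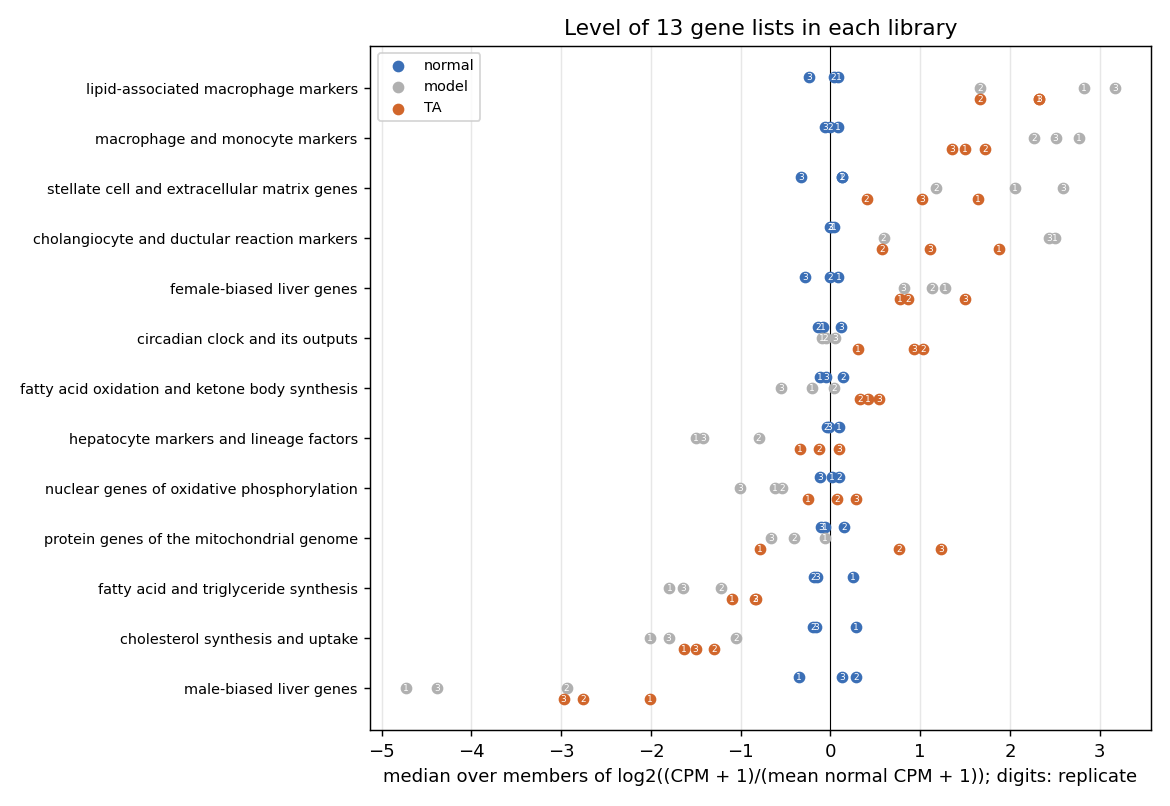
Level of 13 lists in each library, as the median over members of log2((CPM + 1)/(mean normal CPM + 1)), with the replicate number inside each point. For the macrophage list the 3 TA libraries lie between the normal and the model libraries, and the matrix and cholangiocyte lists spread the TA libraries from replicate 2 (lowest) to replicate 1 (highest).

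Transcripts of cholesterol synthesis stood far below normal in the TA livers. The list of the pathway's genes had 21 falls among 25 tested members and no rise, with a median of -1.57. Beside it, the median was -1.64 for model against normal, where 23 members fell against a background of 22.6%, and -0.09 for TA against model, where 4 rose against a background of 11.8% and none fell. Pmvk (ENSMUSG00000027952, chromosome 3, 89454541 to 89469013 on GRCm38), phosphomevalonate kinase, stood at 96.4, 54.1 and 39.7 CPM in normal and 12, 10.3 and 6.26 CPM in TA libraries, all TA values below all normal ones, and fell by 2.73 ± 0.37 (adjusted p = 0.000684). Dhcr7, which makes the last step to cholesterol, went from 165, 93.4 and 94.8 CPM to 21.6, 30.6 and 21.2 CPM (-2.26 ± 0.30, adjusted p = 0.000614), and Mvk, mevalonate kinase, from 42.3, 25 and 27.3 CPM to 9.49, 9.88 and 8.79 CPM (-1.75 ± 0.27, adjusted p = 0.0014). Insig1, which holds the sterol sensor in the endoplasmic reticulum and is itself a sterol-regulated gene, fell by 1.68 ± 0.25 (adjusted p = 0.00122). Srebf2, the regulator of the pathway, named after its values were seen, was not called (-0.46 ± 0.18, adjusted p = 0.113). When 1 library was left out the falls numbered 15 to 20.

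These genes are known targets of the sterol-regulated factor SREBP2, which binds promoters together with the CCAAT-binding factor NF-Y. RefSeq promoters (250 bases before to 50 after a start, GRCm38.p6) were found for 17 of the 25 members and searched on both strands for the sterol element TCACCCCAC and for the box CCAAT, neither of which holds the other. Their 20 promoters held the box in 16 cases (80%), against 37.4% of all 32851 promoters and 60.6% of those of the clock list below, and the sterol element in 1 case, Hmgcs1, against 0.551% of all promoters. A match is a description, not a site or a cause. The stretches before the start that hold the matches are shown for Hmgcs1 (chr13:119690101-119690330, plus strand), the enzyme that makes hydroxymethylglutaryl-CoA, and Mvk (chr5:114444076-114444268, plus strand), chosen because their matches are many. Capitals mark the sterol element and CCAAT or its complement ATTGG.
Hmgcs1: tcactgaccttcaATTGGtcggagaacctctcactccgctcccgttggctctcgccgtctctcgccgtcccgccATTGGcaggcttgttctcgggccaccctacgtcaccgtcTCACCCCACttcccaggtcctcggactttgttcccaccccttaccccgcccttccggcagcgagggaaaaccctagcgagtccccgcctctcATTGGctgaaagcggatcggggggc
Mvk: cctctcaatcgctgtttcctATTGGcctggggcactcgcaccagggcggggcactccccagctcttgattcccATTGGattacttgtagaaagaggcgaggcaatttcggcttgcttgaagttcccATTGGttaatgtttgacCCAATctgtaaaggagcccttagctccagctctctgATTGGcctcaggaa
Hmgcs1, named for its promoter, fell by 1.57 ± 0.39 (adjusted p = 0.0188), from 525, 362 and 250.3 CPM to 81.2, 161 and 141 CPM.

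Transcripts of fatty acid synthesis were lower too, with 13 falls among 26 tested members, no rise and a median of -0.92 (-1.56 for model against normal). Scd1 (ENSMUSG00000037071, chromosome 19, 44394455 to 44407879 on GRCm38), the main stearoyl-CoA desaturase of the liver, went from 17281, 8552 and 8945 CPM to 1605, 601 and 783 CPM. It fell by 3.54 ± 0.53 (adjusted p = 0.00124), and the model libraries held 59.7 to 196 CPM, below the TA libraries (TA against model, 2.89 ± 0.51, adjusted p = 0.00435). Me1, malic enzyme, which supplies NADPH for synthesis, went from 263, 317 and 206 CPM to 71.1, 72.1 and 53.6 CPM (-2.00 ± 0.23, adjusted p = 0.000293). Acacb, an acetyl-CoA carboxylase gene, fell by 2.58 ± 0.36 (adjusted p = 0.000791). Acss2, an acetyl-CoA synthetase gene, fell by 2.50 ± 0.42 (adjusted p = 0.00246), and the value was -1.86 (adjusted p = 0.00503) without normal replicate 1, the highest normal library. Elovl2, an elongase of polyunsaturated chains, was not called (-0.07 ± 0.23, adjusted p = 0.863).

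Fatty acid oxidation genes rose in part. Of 38 tested members of oxidation and ketone body synthesis 12 rose and none fell, with a median of 0.47 for TA and -0.08 for model against normal. Acot2, a mitochondrial acyl-CoA thioesterase gene, went from 4.35, 6.39 and 3.33 CPM to 23.1, 14 and 20.8 CPM (2.05 ± 0.27, adjusted p = 0.000588). Vnn1, a pantetheinase gene and target of the fatty acid receptor PPAR alpha, went from 37.5, 55.5 and 45.9 CPM to 167, 124 and 182 CPM (1.77 ± 0.24, adjusted p = 0.000673). All TA values of both genes exceeded all normal ones. The peroxisomal thioesterase gene Acot4 rose by 1.10 ± 0.17 (adjusted p = 0.00144) and the ketone body dehydrogenase gene Bdh1 by 1.02 ± 0.20 (adjusted p = 0.0052). The rises numbered 6 without normal replicate 3 and 7 without normal replicate 1, and 2 members fell without TA replicate 1.

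Fatty acid hydroxylase genes of the Cyp4a family were among the largest gains in CPM of called genes. Cyp4a14 (ENSMUSG00000028715, chromosome 4, 115486200 to 115496142 on GRCm38) stood at 184, 757 and 159 CPM in normal and 2377, 2459.6 and 2985 CPM in TA libraries. It rose by 2.83 ± 0.59 (adjusted p = 0.00812), and by 3.92 (adjusted p = 0.00113) without normal replicate 2, the highest normal library. Cyp4a10 went from 90.3, 502 and 210.0 CPM to 1624, 1256 and 1897 CPM and rose by 2.57 ± 0.58 (adjusted p = 0.0117), a value of 3.40 (adjusted p = 0.00513) without normal replicate 2 and of 2.42 (adjusted p = 0.0576), not called, without normal replicate 3. In the list of lipid droplet and fatty acid uptake genes 7 of 26 rose and none fell. Lpl, lipoprotein lipase, rose by 2.70 ± 0.22 (adjusted p = 3.29e-05), the fatty acid receptor gene Cd36 by 2.41 ± 0.24 (adjusted p = 0.000105) and the droplet protein gene Cidec by 2.32 ± 0.34 (adjusted p = 0.00105). Lpl and Cd36 are also genes of lipid-laden macrophages, whose markers rose in the same libraries, and the part of those cells in these rises was not tested. Fabp1, the fatty acid binding protein of hepatocytes, was not called (0.25 ± 0.27, adjusted p = 0.573), and neither was the droplet coat gene Plin2, named after its values were seen (0.11 ± 0.26, adjusted p = 0.807).

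**Figure D4:**
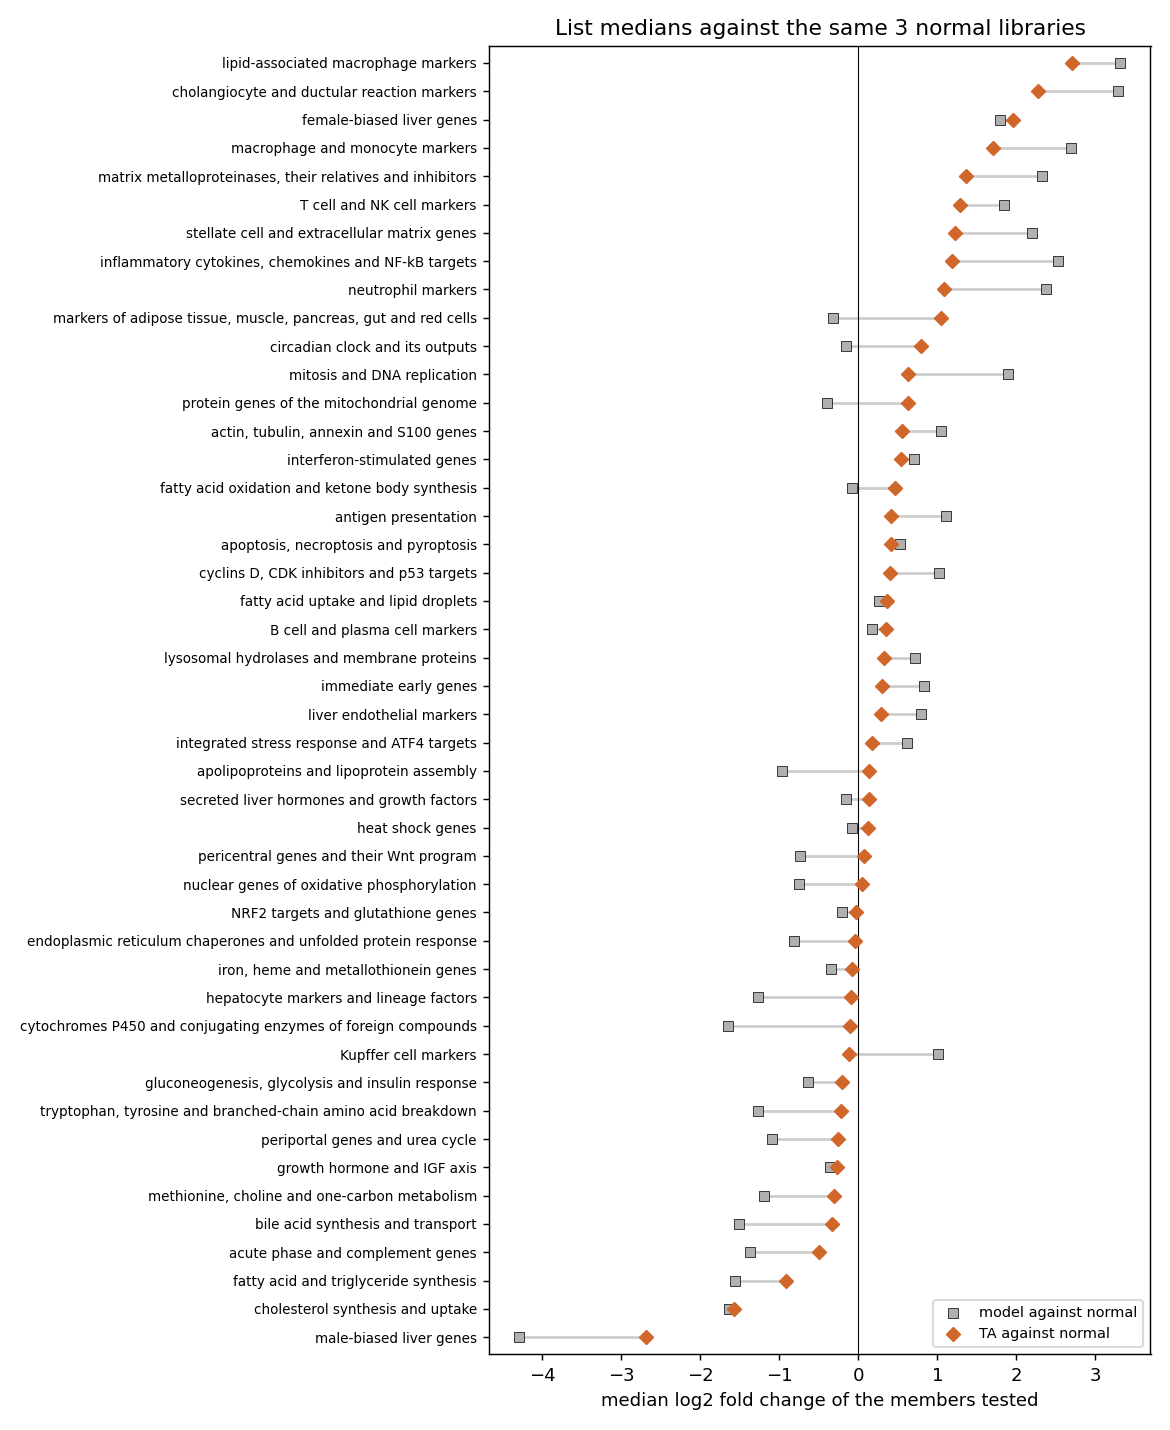
Median log2 fold change of the tested members of each list in TA against normal (diamonds) and model against normal (squares), both against the same 3 normal libraries. The cholesterol and female-biased lists have their pair of symbols close together, and hepatocyte markers lie near 0 for TA (-0.09) and at -1.26 for model.

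Genes that mouse liver expresses more in males, which depend on the pulsed release of growth hormone, were low. Of 39 tested members 23 fell and none rose, with a median of -2.69 for TA and -4.29 for model against normal. Their summed level was 37545 to 65534 CPM in normal, 6998 to 10438 CPM in TA and 1143 to 4688 CPM in model libraries. Bcl6, a male-biased repressor of female-biased genes, went from 82.8, 100 and 115 CPM to 16.1, 24.2 and 18.4 CPM, all TA libraries below all normal ones (-2.34 ± 0.19, adjusted p = 4.06e-05). Gstp1, a glutathione transferase gene with a near-identical neighbour, went from 1335, 1946 and 1827 CPM to 407, 351 and 237 CPM (-2.36 ± 0.26, adjusted p = 0.000198), and the complement regulator gene Susd4 fell by 2.75 ± 0.37 (adjusted p = 0.000691). Mup3, another major urinary protein gene, had 2056, 2832 and 2873 CPM against 8945, 10038 and 10268 CPM in normal libraries and was not called (-1.91 ± 0.60, adjusted p = 0.0518). It was called in 6 of the 15 alternatives, among them a fit of the 6 libraries alone (-1.93, adjusted p = 0.000324) and DESeq2 (-1.94, adjusted p = 0.0417). TA replicate 1 had the highest list level of the TA libraries, with medians over members of -2.01, -2.75 and -2.97 in replicates 1 to 3 on the log2(CPM + 1) scale relative to normal. Without it 31 members fell.

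Female-biased genes moved the other way, with 13 rises and 2 falls among 28 tested members and a median of 1.96 (1.89 with genes at 0 counts in the normal group set to their bounds). Cyp2a4 had 1 count over the normal group and 482 over the TA group, a ratio of scaled counts of 464 (95% counting interval 82.9 to 18400). Its reads cannot be fully told from those of the near-identical Cyp2a5. Cyp2b9 stood at 0.958, 0 and 0 CPM in normal and 3.57, 62.7 and 125 CPM in TA libraries (adjusted p = 0.0025), all TA values above all normal ones. It was not called with limma-voom (adjusted p = 0.283), and its fitted fold change is not given because it depends on the normal libraries near or at 0. No normal library held a count of Cyp3a44, a female-specific cytochrome gene, which was at least 20.2-fold higher in TA when 3 counts over all normal libraries are taken as the floor. Cyp3a44 was named after its values were seen, and such intervals and floors cover counting error only. Atp6v0d2, a subunit of the proton pump that macrophages also express, rose by 3.63 ± 0.30 (adjusted p = 4.08e-05). Cyp2c69 went against the list, with 180 counts over the normal and 3 over the TA group, a ratio of 62.3 (21.0 to 305). The rises numbered 7 without normal replicate 3 and the falls 1 without normal replicate 3 or TA replicate 2. The list's median was 1.79 for model against normal and -0.09 for TA against model.

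In the growth hormone and IGF axis itself 3 of 24 members rose and 6 fell. Igfbp2 (ENSMUSG00000039323, chromosome 1, 72824503 to 72852474 on GRCm38), a binding protein for insulin-like growth factors, went from 409, 783 and 885 CPM to 2732, 2584 and 2523 CPM, and rose by 1.92 ± 0.31 (adjusted p = 0.00194). Irs2, an adaptor of the insulin receptor, fell by 1.67 ± 0.34 (adjusted p = 0.00678). The transducer genes Stat5b (-0.87 ± 0.20, adjusted p = 0.0133) and Stat5a (-0.72 ± 0.19, adjusted p = 0.0255) fell too, and both calls were lost without normal replicate 3 or TA replicate 2, that of Stat5a also without normal replicate 1 or 2 or TA replicate 3, and both with library totals. The falls in this list numbered 2 or 3 without any 1 of the normal libraries, TA replicate 2 or TA replicate 3. Igf1, named after its values were seen, was not called (-0.41 ± 0.24, adjusted p = 0.268).

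Circadian clock genes differed from normal in a pattern of opposite signs, with 15 rises and 6 falls among 29 tested members. The time of day of collection was not given for any group. A difference in that time therefore cannot be told apart from the diet and the compound for these genes. The 3 period genes, both REV-ERB genes and the PAR bZIP genes Dbp and Tef, which the CLOCK-BMAL1 activator is known to switch on, rose, and Arntl, Clock and Npas2, genes of the activator itself, fell. The other falls were those of Cry1, whose promoter held the E-box described below, and of Nfil3 and Avpr1a. These were named after their values were seen. Dbp (ENSMUSG00000059824, chromosome 7, 45705088 to 45710203 on GRCm38), a PAR bZIP activator of daily output genes, stood at 0.368, 0.256 and 0.963 CPM in normal and 66.6, 125 and 133 CPM in TA libraries. It rose by 7.63 ± 0.98 (adjusted p = 0.000561), and by 8.38 (adjusted p = 0.0037) without normal replicate 3. The model libraries held 4.51 to 54.5 CPM, all below the TA libraries (TA against model, 2.19 ± 0.67, adjusted p = 0.0368). Nr1d1, which encodes the repressor REV-ERB alpha, went from 27.6, 29.1 and 52.8 CPM to 191, 130.3 and 131 CPM (2.05 ± 0.26, adjusted p = 0.000494), while model against normal gave 0.56 ± 0.25 (adjusted p = 0.087) and TA against model 1.49 ± 0.25 (adjusted p = 0.00372).

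Usp2, a rhythmic deubiquitinase gene, went from 2.87, 4.94 and 3.78 CPM to 32.2, 82.4 and 61.6 CPM and rose by 3.93 ± 0.48 (adjusted p = 0.000388). Ciart, a repressor of the activator, went from 0.442, 0.937 and 0.296 CPM to 8.88, 49.98 and 37.4 CPM, with TA replicate 1 the lowest of the 3, and rose by 5.85 ± 0.90 (adjusted p = 0.00142), a call that limma-voom did not make (5.54, adjusted p = 0.0659). The cell cycle kinase gene Wee1 rose by 2.94 ± 0.33 (adjusted p = 0.000228) and the repressor gene Bhlhe41 by 4.50 ± 0.50 (adjusted p = 0.000213). On the other side Npas2, a partner of BMAL1, went from 15.5, 11.1 and 15.2 CPM to 2.78, 0.898 and 1.04 CPM and fell by 3.09 ± 0.43 (adjusted p = 0.000824), and the value was -3.87 (adjusted p = 0.000377) without TA replicate 1. Arntl, the gene of BMAL1 itself and named after its values were seen, fell by 3.07 ± 0.51 (adjusted p = 0.0021). Upp2, a uridine phosphorylase gene, was not called (0.80 ± 0.43, adjusted p = 0.234), and was without TA replicate 1 (1.16, adjusted p = 0.0344). With 1 library left out, 12 to 15 members rose and 4 to 6 fell. The median of the list was 0.80 for TA and -0.16 for model against normal.

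Promoters were found for 23 of the 29 members and searched on both strands for the E-box CACGTG, the letters that CLOCK-BMAL1 binds, and for the D-box TTATGTAA, those of PAR bZIP factors, neither of which holds the other. Their 33 promoters held the E-box in 8 cases (24.2%), against 7.15% of all promoters, and the D-box in 1 case, Per3, against 0.938% of all promoters. The E-box was present in 20% of the 20 promoters of the cholesterol list. The E-box was present for 4 of the 12 rises and 1 of the 6 falls with a promoter. That Dbp and Nr1d1 had none says only that these letters are not in this window. A match is a description, not a site or a cause. The matched stretches of rising genes, which lie before the start, follow with the matches in capitals: Ciart (chr3:95882247-95882364, minus strand), Bhlhe41 (chr6:145865548-145865593, minus strand), Tef (chr15:81802526-81802571, plus strand), Per1 (chr11:69098763-69098808, plus strand) and Per3 (chr4:151044796-151044890, minus strand).
Ciart: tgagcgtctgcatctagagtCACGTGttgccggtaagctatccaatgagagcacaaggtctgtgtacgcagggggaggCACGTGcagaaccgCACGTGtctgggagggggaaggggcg
Bhlhe41: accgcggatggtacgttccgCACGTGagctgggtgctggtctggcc
Tef: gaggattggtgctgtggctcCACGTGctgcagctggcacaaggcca
Per1: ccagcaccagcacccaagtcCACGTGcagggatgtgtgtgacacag
Per3: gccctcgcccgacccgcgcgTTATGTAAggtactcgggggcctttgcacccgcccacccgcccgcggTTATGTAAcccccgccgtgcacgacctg
Tef, Per1 and Per3 were named for their promoters. Per3, a period gene, rose by 4.33 ± 0.64 (adjusted p = 0.00122), Tef, a PAR bZIP activator, by 2.24 ± 0.31 (adjusted p = 0.000824) and Per1 by 1.80 ± 0.26 (adjusted p = 0.00105).

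**Figure D5:**
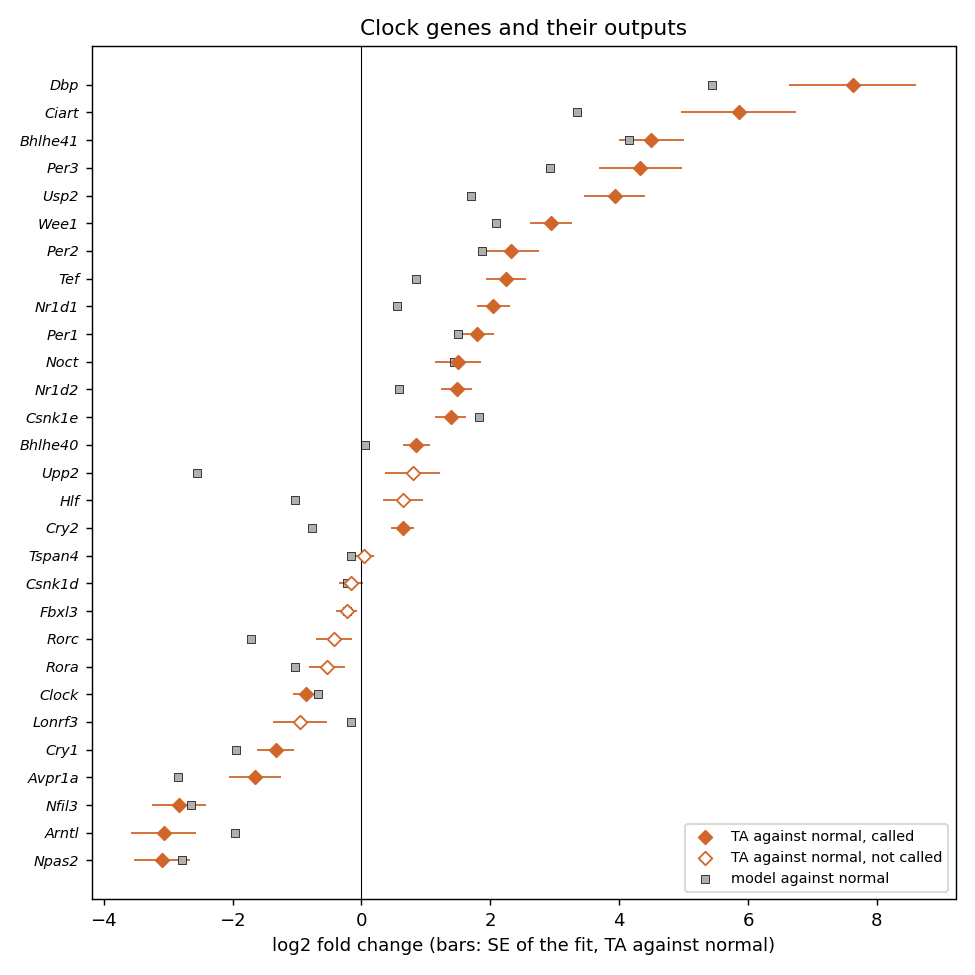
Log2 fold change of each tested clock gene in TA against normal (diamonds, filled where called, with the approximate standard error) and in model against normal (squares). Dbp (7.63) and Npas2 (-3.09) mark the ends, and both groups share the 3 normal libraries.

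Few markers of hepatocytes passed the test in the fit of all 9 libraries. Of 43 tested, 1 fell, the clotting factor gene F7 (-0.88 ± 0.20, adjusted p = 0.0132), a call lost without normal replicate 1 or TA replicate 2, while 5 fell in a fit of the 6 libraries alone and 4 with DESeq2, and the median was -0.09 (0.0023 with library totals). In model against normal 37 of them fell, beside 22.6% of all genes, and the median was -1.26. Alb stood at 101422, 80095 and 105392 CPM in normal and 76541, 102902 and 100659 CPM in TA libraries, and the groups overlapped (-0.03 ± 0.35, adjusted p = 0.961). Nuclear genes of oxidative phosphorylation had no call among 49 with a median of 0.05 (-0.02 without normal replicate 3 and -0.12 without TA replicate 3), and 38 falls with a median of -0.75 for model against normal. The endoplasmic reticulum chaperone list had no call among 25 at a median of -0.04 beside 14 falls for model against normal. That median was 0.09 with library totals and 0.02 to 0.05 without normal replicate 3, TA replicate 2 or TA replicate 3, and 2 members fell without TA replicate 1. Neither list's lack of calls shows that its genes were at the normal level. The falls and medians of model against normal given here rest on the TMM scale, and were not computed with library totals. The 12 tested protein genes of the mitochondrial genome were also without a call, and spread widely over the TA libraries, with list medians of -0.78, 0.76 and 1.23 in replicates 1 to 3 relative to normal. When TA replicate 1 was left out, 6 of them rose.

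Bile acid synthesis and transport genes had 3 falls among 25 tested, at a median of -0.33 beside -1.51 for model against normal. Cyp7b1, of the alternative pathway and male-biased, went from 157, 474 and 374 CPM to 87.7, 36.4 and 31.3 CPM (-2.69 ± 0.59, adjusted p = 0.0105), and gave -3.33 (adjusted p = 0.00731) without TA replicate 1. The falls of Cyp2c70, the muricholic acid hydroxylase gene (adjusted p = 0.0442), and Nr0b2, a bile acid-induced repressor gene (adjusted p = 0.0494), were lost without normal replicate 2 or 3 or TA replicate 1 or 2, that of Cyp2c70 also without normal replicate 1 or TA replicate 3, and both with library totals or limma-voom. The list had 1 fall without normal replicate 2 or 3 or TA replicate 2 or with library totals. It had 8 falls in a fit of the 6 libraries alone, 6 with DESeq2 or without the filter on low counts and 5 with DESeq2 size factors. Slco1b2, an importer gene, was not called (-0.41 ± 0.42, adjusted p = 0.553), nor, named after its values were seen, was Cyp7a1, the rate-limiting enzyme of bile acid synthesis (-2.52 ± 0.79, adjusted p = 0.0502). In methionine, choline and one-carbon metabolism 4 of 32 fell and 1 rose. Csad, which makes hypotaurine from cysteine products, went from 349, 661 and 524 CPM to 106, 101 and 54.9 CPM (-2.55 ± 0.34, adjusted p = 0.000681), and Cbs, the entry of transsulfuration, fell by 1.19 ± 0.20 (adjusted p = 0.00221). Mat1a, the adult liver's S-adenosylmethionine synthetase gene, was not called (-0.04 ± 0.29, adjusted p = 0.938), and the rise of Mat2a, its extrahepatic counterpart (0.63 ± 0.17, adjusted p = 0.0284), was lost without any 1 normal library or TA replicate 1 or 2. Breakdown of tryptophan, tyrosine and branched chains had 5 falls of 32, or 15.6% called against 15.8% of all genes. They were led by the pterin reductase gene Qdpr (-1.31 ± 0.22, adjusted p = 0.00228). The falls numbered 3 without normal replicate 1 or 3 or TA replicate 2. For model against normal they numbered 31, beside 22.6% of all genes.

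Enzymes for foreign compounds split in direction. Among 56 tested 7 rose and 9 fell, with a median of -0.10 (0.01 with library totals) beside -1.64 for model against normal. Cyp2c29 (ENSMUSG00000003053, chromosome 19, 39269405 to 39330713 on GRCm38), a hydroxylase gene, went from 1555, 1078 and 1434 CPM to 186, 232 and 326 CPM (-2.45 ± 0.29, adjusted p = 0.000312), and the carboxylesterase gene Ces1d from 884, 825 and 983 CPM to 206, 333 and 332 CPM (-1.63 ± 0.22, adjusted p = 0.000703). TA libraries of both lay below normal ones and above the model libraries, at 43.1 to 77.1 and 65.3 to 78.8 CPM. Cyp2a5 (ENSMUSG00000005547, chromosome 7, 26835305 to 26843548 on GRCm38), the coumarin hydroxylase gene, went from 205, 162 and 204 CPM to 559, 747 and 1271 CPM and rose by 2.17 ± 0.29 (adjusted p = 0.000689), while the model libraries held 182 to 257 CPM (TA against model, 1.94 ± 0.29, adjusted p = 0.00248). Cyp2e1 was not called (0.66 ± 0.53, adjusted p = 0.436), and was in a fit of the 6 libraries alone (0.64, adjusted p = 0.0404), where 15 members of the list fell. Pericentral genes had 2 rises among 23, Cyp2a5 and the aldehyde dehydrogenase gene Aldh3a2 (0.90 ± 0.25, adjusted p = 0.0301, lost without any 1 of the normal libraries or TA replicate 1 or 3). Periportal genes had 3 falls and 1 rise among 27, led by the ornithine carrier gene Slc25a15 (-0.91 ± 0.18, adjusted p = 0.00559), with 1 fall without normal replicate 3 or TA replicate 1 and 3 rises without TA replicate 1. Apolipoprotein genes had 2 rises among 21, of which Apoa4 went from 2.95, 4.17 and 3.33 CPM to 31.9, 23.4 and 40.2 CPM (3.19 ± 0.48, adjusted p = 0.00128).

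Stress responses were raised in selected genes. Atf3, a stress-induced repressor, stood at 2.51, 1.7 and 1.93 CPM in normal and 31.2, 22.6 and 21 CPM in TA libraries, far from overlap, and rose by 3.60 ± 0.23 (adjusted p = 8.27e-06). The list of the integrated stress response had 6 rises among 28, with Trib3, a pseudokinase gene (2.04 ± 0.40, adjusted p = 0.0058), and the cystine importer gene Slc7a11, which went from 0.0737, 0.0852 and 0.148 CPM to 2.54, 4.49 and 5.31 CPM (5.2 ± 0.48, adjusted p = 6.55e-05). The list of NRF2 targets and glutathione genes had 7 rises and 5 falls among 36, and the falls numbered 1 without normal replicate 1 or 3 or TA replicate 2 or 3 and 2 without normal replicate 2. G6pdx, which supplies NADPH, rose by 0.98 ± 0.17 (adjusted p = 0.00318), and catalase, Cat, was not called (-0.22 ± 0.27, adjusted p = 0.625). Immediate early genes had 6 rises and 3 falls among 23, led by Ier5 (1.41 ± 0.18, adjusted p = 0.000497), the falls numbering 1 without normal replicate 1 and 0 without normal replicate 3, and Egr1 was not called (-0.88 ± 0.38, adjusted p = 0.143). Heat shock genes had 1 call among 20, the collagen chaperone gene Serpinh1 (1.69 ± 0.35, adjusted p = 0.00752).

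Growth control and cell death genes held both rises and falls. Among cyclins D, kinase inhibitors and p53 targets 10 of 27 rose and 2 fell, the rises numbering 5 or 6 without any 1 normal library or TA replicate 2 or 3. Eda2r, a p53-induced receptor gene, went from 0.442, 0.937 and 0.815 CPM to 7.8, 9.8 and 6.35 CPM (3.45 ± 0.36, adjusted p = 0.00016), Phlda3, a p53 target that restrains AKT, rose by 2.68 ± 0.30 (adjusted p = 0.000228), and Ccnd1, cyclin D1, by 1.52 ± 0.21 (adjusted p = 0.000727). Among genes of apoptosis, necroptosis and pyroptosis 14 of 36 rose and 2 fell, with 9 to 11 rises when 1 library was left out (9 without normal replicate 3 or TA replicate 2). Bax, which permeates mitochondria, rose by 1.49 ± 0.22 (adjusted p = 0.00104) and its inhibitor Bcl2l1 by 0.92 ± 0.15 (adjusted p = 0.00212). Bcl2a1a, a leukocyte survival gene with near-identical copies, had no counts in normal libraries and was at least 19.3-fold higher in TA against the same floor. Of 47 mitosis and replication genes 7 rose and none fell, or 14.9% called against 15.8% of all genes. The rises numbered 0 without normal replicate 3 and 1 to 4 without normal replicate 1 or 2 or TA replicate 1 or 2. For model against normal 34 of the 47 genes rose, beside 25.4% of all genes. Mki67, a marker of cycling cells, went from 3.02, 5.2 and 2 CPM to 10.03, 13.1 and 5.65 CPM (1.51 ± 0.36, adjusted p = 0.0166), with its call lost without normal replicate 1 or 3 or TA replicate 2.

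Lysosomal and cytoskeletal genes rose in part, and glucose genes changed in both directions. Lysosomal genes had 13 rises among 40, led with Cd63 and Cd68 by the cathepsin gene Ctsk (3.90 ± 0.33, adjusted p = 4.08e-05), and in CPM by Psap, a prosaposin gene that went from 576, 561 and 592 CPM to 1529, 1207 and 904 CPM (1.07 ± 0.23, adjusted p = 0.00935). Actin, tubulin, annexin and S100 genes had 17 rises and 1 fall among 38, of which Anxa3 went from 3.98, 4.35 and 3.78 CPM to 25.6, 23.1 and 20.4 CPM (2.51 ± 0.18, adjusted p = 1.51e-05). Glucose metabolism had 6 rises and 8 falls among 34, the falls numbering 3 to 5 when 1 of the 6 libraries was left out. The hexokinase gene of leukocytes Hk3 rose by 1.65 ± 0.18 (adjusted p = 0.000191), and the liver glycogen phosphorylase gene Pygl fell by 1.26 ± 0.27 (adjusted p = 0.0101). Pck1, a gluconeogenic enzyme gene, was not called (-0.10 ± 0.28, adjusted p = 0.848). Acute phase and complement genes had 6 rises, among them the macrophage complement genes C1qb (1.36 ± 0.18, adjusted p = 0.000614) and C5ar1 (2.33 ± 0.17, adjusted p = 1.6e-05), and 4 falls among 37, the first being the pore protein gene C9 (-1.45 ± 0.33, adjusted p = 0.0125). The falls numbered 2 without normal replicate 1 or 2 or TA replicate 2 or 3, and 13 in a fit of the 6 libraries alone and 10 with DESeq2. C3 was not called (0.01 ± 0.30, adjusted p = 0.988).

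Iron, haem and metal genes had 2 rises and 2 falls among 28, or 14.3% called against 15.8% of all genes. Alas1, the first enzyme of haem synthesis, was up by 1.65 ± 0.32 (adjusted p = 0.00558). On the other side, the manganese exporter gene Slc30a10 was at -2.39 ± 0.45 (adjusted p = 0.00438). The falls numbered 1 without any 1 of the normal libraries or TA replicate 2. Secreted liver hormones had 4 rises and 1 fall among 28, the rises numbering 2 without normal replicate 1 or TA replicate 1 and 1 without TA replicate 3. Inhbe, an activin subunit gene of hepatocytes, went from 17.3, 32.3 and 22.8 CPM to 62.8, 58.2 and 124 CPM (1.76 ± 0.33, adjusted p = 0.00421), and the rise of Fgf21 (1.69 ± 0.52, adjusted p = 0.0468) was lost when any 1 of the 6 libraries other than normal replicate 2 was left out, and with library totals, limma-voom or the replicate block. Of 7 tested markers of other tissues, 3 globin genes rose and the elastase gene Cela1 fell. Hbb-bs, a beta globin gene of red cells, went from 88.4, 132 and 98.9 CPM to 138, 279 and 316 CPM (1.20 ± 0.28, adjusted p = 0.0133), a call lost without normal replicate 1 or 3. The rises in this list numbered 0 without normal replicate 1 or 3 and 1 without TA replicate 3. The part of residual blood in the rises of leukocyte genes was not tested.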

How the data were processed

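Total RNA of liver was extracted with Trizol and made into libraries with an NEBNext Ultra kit, per the labels' protocols. The authors deposited a table of raw read counts per gene, and FPKM values beside them that equal the counts scaled by depth and gene length within 3.54 ppm, per the file headers and a comparison of the columns. The FPKM values and the authors' deposited comparison tables, which cover other pairs of groups, were not used. The submitters' processing notes name the build mm9, while the gene identifiers match a GRCm38 annotation (GENCODE M21) for 21845 of 21898 genes. The gene coordinates given are those of that annotation. No source used here names the aligner, the counter or the use of strand. The table held 1 blank line, which was left out.

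Counts of all 9 libraries were fitted together in edgeR 4.0.16 (R 4.3.3) with the quasi-likelihood test, after the filterByExpr filter (10 counts, total 15) and TMM scaling, with group as the only term. P-values were adjusted over all 13200 genes tested by Benjamini-Hochberg, with calls made below an adjusted p of 0.05. DESeq2 1.42.0 and limma 3.58.1 (voom) served as alternatives. The script was tested on simulated data. Same-numbered libraries of TA and normal did not deviate together (r = -0.0915, -0.0804 and -0.102), so the numbers were not taken as pairs. Floors are 3 counts over the group, and floors and intervals cover counting error only.

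The libraries and the 46 lists were chosen with earlier results of these data known. Named genes were the 10 largest rises and falls by fold, among called genes with 10 CPM or more and no overlap between groups. The 5 largest rises and falls in CPM, among called genes without overlap, were added. Both rules left out clone-type names, pseudogenes and immunoglobulin segments. From each list they were up to 4 called members with the smallest p, 1 called in the other direction, and the member not called with the highest mean CPM. Genes outside this rule are marked in the text. Results for some genes are not reported here. Promoters were taken from RefSeq (GRCm38.p6) by gene symbol.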

Additional observations from a re-analysis of the deposited data

How the results depend on the processing

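For TA against normal the count of called genes (2081 as reported) ran from 1538 with limma-voom to 2762 with DESeq2, and from 1092 (without normal replicate 3) to 1974 (without TA replicate 1) when 1 library was left out. The rises ran from 782 to 1216 and the falls from 310 to 758 over those 6 left-out libraries. The falls, 664 as reported, numbered 416 with library totals and 1056 with DESeq2. With the replicate number as a block 1575 genes were called, of which 434 fell. The same-numbered libraries did not deviate together, so the block is no evidence of pairing. For TA against model the count, 3031 as reported, was 6122 with library totals and 1651 to 3146 with 1 library left out. For model against normal it was 6344 as reported and 8100 with library totals. The number of lists with at least 50% of members called, 10 as reported, was 4 to 9 with 1 library left out, 7 with the block, 13 with DESeq2 and 15 with the 6 libraries alone. The cause of these shifts was not tested, beyond the smaller groups of the left-out fits. Of 171 named genes that were called, 127 were called in the same direction in every alternative that gave them an adjusted p. No named gene that was called changed sign. There were 15 alternatives, of which 14 gave a result for Hsd3b5, Mup15, Elovl3 and Il1r2. Falls in the one-carbon list (4 as reported) numbered 7 with DESeq2 or the 6 libraries alone, and in the hepatokine list (1) 4 without the filter on low counts or with the 6 libraries alone. With the block the falls of the glucose (8), amino acid (5) and NRF2 (5) lists numbered 5, 3 and 1, and the rises among growth arrest genes (10) numbered 5. With limma-voom the rises of the growth arrest, cell death (14), cell cycle (7) and neutrophil (5) lists numbered 6, 9, 4 and 3. With library totals the falls of the NRF2 and growth hormone (6) lists numbered 3 and 3. Lysosomal falls (0 as reported) numbered 4 with DESeq2. Leaving mitochondrial transcripts out, chosen after seeing the data, gave 2086 called genes. With 3 libraries a group and 13710002 to 16475794 counts per library, genes of few counts had wide errors, and a gene that was not called may still differ.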
